A study of Mus musculus with 15 samples.

Results

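The 8 genes described here, Meig1, Spag16, Rimbp3, Hook1, Ift88, Kif3a, Cep131 and Lrguk, encode proteins of the manchette and of sperm head shaping. They were taken by name for their known roles, with earlier results of these data known. All 8 were found among the 50051 features of the RNA-seq counts. RNA was measured in testes of B6D2F1 mice at postnatal day 28 in 3 genotypes of a piRNA-producing locus on chromosome 18. The libraries comprised 3 of wild type (Chr18+/+, labelled WT control), 3 of heterozygotes (Chr18+/-, labelled HT control) and 3 of homozygotes (Chr18-/-, labelled KO). The labels used here do not say how the locus was altered. All were strand-specific total RNA libraries after ribosomal RNA removal. Small RNA libraries, 3 heterozygous and 3 homozygous, came from periodate-treated RNA, a treatment that spares 3′-methylated RNAs such as piRNAs.

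The manchette is a transient skirt of microtubules that surrounds the nucleus of the elongating spermatid, below a ring at the edge of the acrosome. It moves down the nucleus while the head takes its shape, and it serves as a track along which proteins are carried to the base of the growing tail, a process called intramanchette transport. Much of the machinery that carries cargo along cilia, the intraflagellar transport proteins and their kinesin-II motor, is also found there. Loss of several of the 8 proteins is known to leave male mice with misshapen sperm heads, defective tails or both.

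RNA-seq libraries held 21684791 to 41513634 counted fragments, and each of the 8 genes had between 345 and 50646 fragments in each library. Levels are given as CPM, the usual counts-per-library unit, after scaling of the library sizes. The 2 precursor transcripts counted at the targeted locus had 862 to 9595 fragments in wild type, 581 to 8948 in heterozygotes and 0 to 6 in homozygotes. The labels do not say that the libraries of a group came from separate animals, so each p-value reflects only how far these libraries differ among themselves, which may be technical. Wild-type library 1 stood apart from the other wild-type libraries (chi-square per degree of freedom 47.6 and 50.7, against 3.12 between libraries 2 and 3), and heterozygous library 1 stood apart from its group (39.2 and 42.6, against 17.9). All 13 elongating spermatid markers, the cells that carry a manchette, were present at a mean of 38.5 CPM or more. Their summed level was 16719.8 to 17470 CPM in wild type, 5954 to 14159.5 in heterozygotes and 9715 to 12655 in homozygotes, lowest in heterozygous library 1. Of the 13, 7 were lower than wild type in heterozygotes and 5 in homozygotes by edgeR, and 0 were higher. Among all tested features, 12.9% were lower in heterozygotes and 11.1% in homozygotes. In bulk tissue, fewer cells of a type and less RNA per cell cannot be told apart.

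Among the 8 genes, Rimbp3 alone passed the test between genotypes. It was lower in heterozygotes and in homozygotes than in wild type, at 0.678 and 0.739 of the wild-type level. The other 7 did not pass the test in any of the 3 comparisons. Between homozygotes and heterozygotes none of the 8 passed.

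RIMBP3 binds the manchette and the microtubule linker HOOK1, and its loss deforms the sperm head. The gene Rimbp3 (ENSMUSG00000071636.6, mm10 chromosome 16, 17208135 to 17213921, plus strand) has no intron in the annotation of the files, so its counts hold no intronic RNA. Rimbp3 stood at 461, 358 and 378 CPM in the wild-type libraries 1 to 3. In the heterozygous libraries it stood at 247, 284 and 281 CPM, and in the homozygous libraries at 317, 303 and 265. All 6 libraries of both other genotypes lay below all 3 wild-type libraries, and the heterozygous and homozygous values overlapped. Among all tested features, 42.1% did not overlap with wild type in heterozygotes and 42.6% in homozygotes, in either direction. Mean levels came to 399 ± 54.9 CPM for wild type, 271 ± 20.3 for heterozygotes and 295 ± 27.1 for homozygotes (SD, n = 3 each). Against wild type the log2 fold change was -0.56 in heterozygotes (SE 0.12, 95% interval -0.81 to -0.31, edgeR quasi-likelihood p adjusted by Benjamini-Hochberg = 0.0073). It was -0.44 in homozygotes (SE 0.12, -0.69 to -0.19, edgeR adjusted p = 0.0212). These 2 comparisons share the wild-type libraries. Between homozygotes and heterozygotes it was 0.12 (-0.13 to 0.37, edgeR adjusted p near 1).

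The call in heterozygotes passed with each of the 9 libraries left out in turn, with log2 fold changes of -0.64 to -0.44 and edgeR adjusted p of 0.00926 to 0.0231. The call in homozygotes was lost without wild-type library 1 (log2 fold change -0.32, edgeR adjusted p = 0.0605), without homozygous library 2 (-0.46, 0.0636) or without homozygous library 3 (-0.37, 0.0901). It was also lost when trends of gene length were removed from each library (-0.30, edgeR adjusted p = 0.0813). The part of the lower elongating spermatid markers in the Rimbp3 result was not tested.

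These calls stand beside many others. In edgeR, 23.9% of the 20782 tested features passed between heterozygotes and wild type, with 11.1% higher and 12.9% lower. Between homozygotes and wild type 20.8% passed, with 9.68% higher and 11.1% lower. With 1 of 8 lower in each comparison and 0 higher, the share among the 8 genes was near that background. The median log2 fold change of the 8 was 0.05 in heterozygotes (all features -0.00231) and -0.05 in homozygotes (all features -0.01). Without scaling beyond library size, the split of all calls moved from 2302 higher and 2675 lower to 3175 and 1575 in heterozygotes, and from 2012 and 2307 to 2225 and 1688 in homozygotes. Between homozygotes and heterozygotes 0.0289% of features passed in edgeR and 0 of the 8 did, with 0 of the 8 at an unadjusted p under 0.05 (3.07% of features) and 0 by DESeq2.

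**Figure D1:**
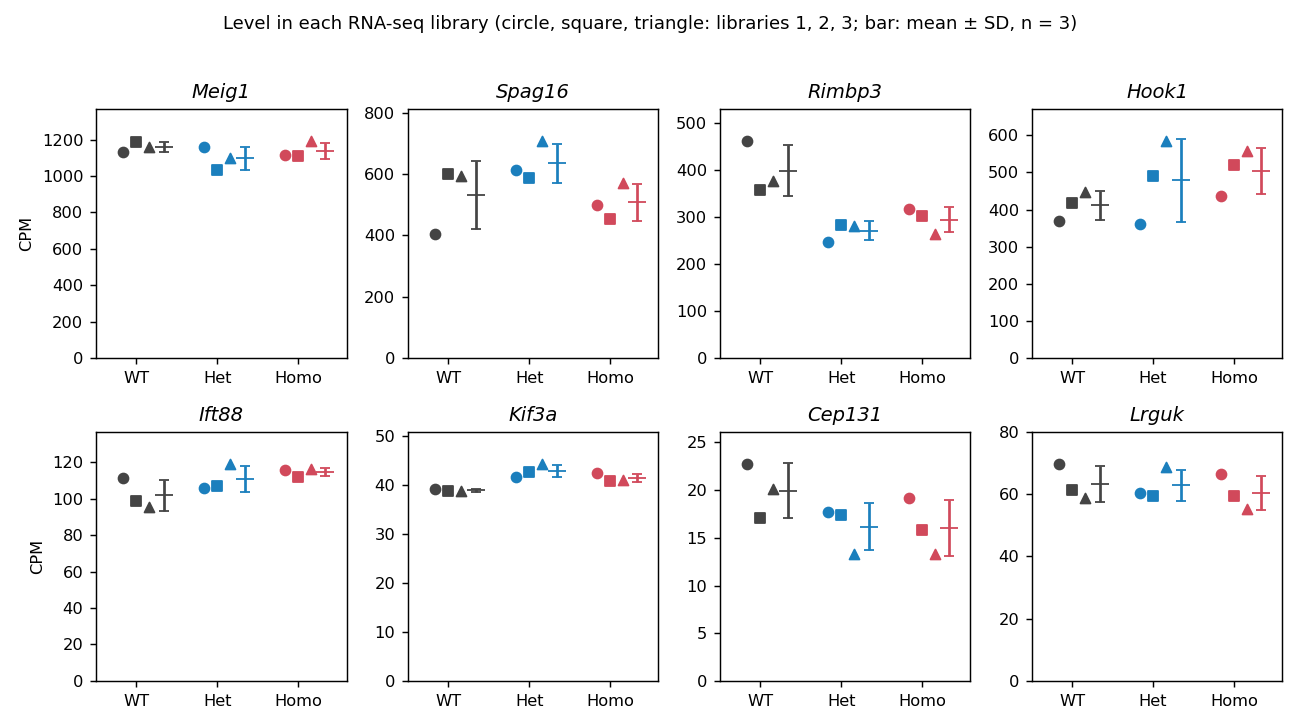
Level of each gene in CPM (vertical axes from 0) in the 9 RNA-seq libraries, with circles, squares and triangles for libraries 1, 2 and 3 of each genotype and a bar for the mean ± SD. Rimbp3 lies below wild type in all 6 other libraries, Kif3a lies slightly above wild type in all 6, and the other 6 genes overlap with wild type in heterozygotes. Of all tested features, 42.1% do not overlap with wild type in heterozygotes and 42.6% in homozygotes.

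HOOK1 links microtubules to cargo, and its loss causes the abnormal head shape of the azh mouse. Hook1 (chromosome 4, 95967240 to 96025413, plus strand) stood at 370, 419 and 447 CPM in wild type, at 360, 491 and 584 in heterozygotes and at 437, 520 and 559 in homozygotes. Heterozygous library 1 was the lowest of the 9, and all groups overlapped. The log2 fold change against wild type was 0.22 in heterozygotes (SE 0.16, 95% interval -0.13 to 0.56, edgeR adjusted p = 0.343) and 0.29 in homozygotes (SE 0.16, -0.05 to 0.64, edgeR adjusted p = 0.203). Without heterozygous library 1 the first of these was 0.38 and passed (edgeR adjusted p = 0.0494), while without heterozygous library 3 it was 0.046 (edgeR adjusted p = 0.863). In the other 16 alternatives Hook1 did not pass in heterozygotes, and in homozygotes it passed in 0 of 17.

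LRGUK carries leucine-rich repeats and a guanylate kinase-like domain and is needed for the manchette to move and the head to be shaped. Lrguk (chromosome 6, 34029448 to 34134034, plus strand) stood at 69.6, 61.4 and 58.8 CPM in wild type, at 60.3, 59.6 and 68.7 in heterozygotes and at 66.3, 59.4 and 55.3 in homozygotes. The 3 groups overlapped throughout. Its log2 fold change against wild type was -0.01 in heterozygotes (95% interval -0.23 to 0.21) and -0.07 in homozygotes (-0.29 to 0.15), with edgeR adjusted p of 0.953 and 0.668.

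CEP131, a protein of the centrosome and of centriolar satellites, is found on the manchette and is required for the sperm tail. Cep131 (chromosome 11, 120064430 to 120086827, minus strand) was the least abundant of the 8. It stood at 22.7, 17.0 and 20.1 CPM in wild type, at 17.7, 17.4 and 13.3 in heterozygotes and at 19.1, 15.8 and 13.3 in homozygotes. The log2 fold change was -0.30 in heterozygotes (95% interval -0.65 to 0.04, edgeR adjusted p = 0.181) and -0.31 in homozygotes (-0.66 to 0.03, edgeR adjusted p = 0.180), and the groups overlapped. Without wild-type library 1 these values were -0.19 and -0.21, and without heterozygous library 3 the first was -0.18. In each genotype the library with the lowest Hook1 was the library with the highest Cep131, which was library 1 every time.

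Meig1 was the most abundant of the 8. MEIG1 is a small protein of the manchette, where it is needed for SPAG16 to reach the tail. Meig1 (chromosome 2, 3409043 to 3422648, minus strand) stood at 1131, 1186 and 1157 CPM in wild type, at 1159, 1034 and 1098 in heterozygotes and at 1117, 1110.2 and 1191 in homozygotes. The 3 groups overlapped. The log2 fold change was -0.08 in heterozygotes (95% interval -0.27 to 0.12, edgeR adjusted p = 0.562), -0.02 in homozygotes (-0.22 to 0.17, edgeR adjusted p = 0.878) and 0.05 between homozygotes and heterozygotes (-0.14 to 0.25, edgeR adjusted p near 1).

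SPAG16 is a WD-repeat protein of the central apparatus of the sperm tail that travels along the manchette. Spag16 (chromosome 1, 69826970 to 70725132, plus strand) spans 898163 bases, of which 0.753% are exon, and introns were counted. It stood at 406, 601 and 594 CPM in wild type, at 614, 586 and 707 in heterozygotes and at 500.5, 452 and 571 in homozygotes. All 3 homozygous libraries lay below all 3 heterozygous libraries, while wild type, with its low library 1, overlapped both. Features whose libraries did not overlap between homozygotes and heterozygotes made up 8.31% of those tested, and Spag16 was the 1 of the 8 among them. Its log2 fold change there was -0.32 (SE 0.15, 95% interval -0.65 to 0.00182, unadjusted p = 0.0511, edgeR adjusted p near 1). Against wild type it was 0.25 in heterozygotes (-0.07 to 0.58, edgeR adjusted p = 0.235) and -0.07 in homozygotes (-0.39 to 0.26, edgeR adjusted p = 0.771). Without wild-type library 1 these were 0.095 and -0.23 (edgeR adjusted p = 0.612 and 0.189).

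Long genes moved between libraries together with Spag16. For the 225 tested features of 500000 bases or more, the median deviation from the mean of the 9 libraries was -0.42 log2 units in wild-type library 1 and 0.36 in heterozygous library 3, the lowest and the highest. Spag16 deviated by -0.44 and 0.36 in the same libraries. The median log2 fold change of these long features was 0.32 between heterozygotes and wild type, 0.07 between homozygotes and wild type and -0.23 between homozygotes and heterozygotes. With trends of gene length removed, the log2 fold change of Spag16 between homozygotes and heterozygotes was -0.08, and that between heterozygotes and wild type turned to -0.07.

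**Figure D2:**
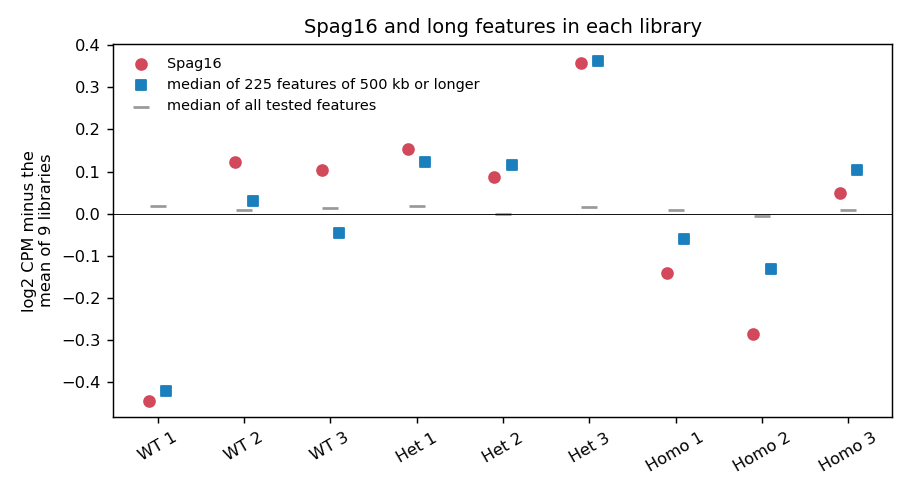
Deviation of log2 CPM from the mean of the 9 libraries (vertical axis) in each library (horizontal axis), for Spag16 (circles), for the median of 225 features with long gene bodies (squares) and for the median of all tested features (dashes). Spag16 and the long features are both lowest in wild-type library 1 and highest in heterozygous library 3.

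IFT88 is a core protein of the intraflagellar transport B complex and is found on the manchette. Ift88 (chromosome 14, 57424062 to 57517936, plus strand) stood at 111, 98.8 and 95.1 CPM in wild type, at 106, 107 and 119 in heterozygotes and at 116, 112 and 116 in homozygotes. The homozygous libraries lay just above the wild-type libraries, with the lowest at 111.8 and the highest wild-type library at 111.4 CPM. The log2 fold change was 0.12 in heterozygotes (95% interval -0.07 to 0.31, edgeR adjusted p = 0.353) and 0.17 in homozygotes (-0.02 to 0.37, edgeR adjusted p = 0.191). The first of these was 0.19 without wild-type library 1, and 0.070 and 0.064 without wild-type or heterozygous library 3, none of which passed.

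KIF3A is a motor subunit of kinesin-II, the motor that carries intraflagellar transport trains. Kif3a (chromosome 11, 53567379 to 53601967, plus strand) stood at 39.2, 38.8 and 38.7 CPM in wild type, at 41.7, 42.5 and 44.2 in heterozygotes and at 42.4, 40.8 and 41.1 in homozygotes. All 6 libraries of both other genotypes lay above wild type. The difference was small and did not pass: 0.14 in heterozygotes (95% interval -0.03 to 0.30, edgeR adjusted p = 0.205) and 0.09 in homozygotes (-0.08 to 0.26, edgeR adjusted p = 0.423). Libraries did not overlap with wild type for 42.1% of features in heterozygotes and 42.6% in homozygotes. Of the 8 genes, Rimbp3 and Kif3a were among them in heterozygotes, and Rimbp3, Ift88 and Kif3a in homozygotes.

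**Figure D3:**
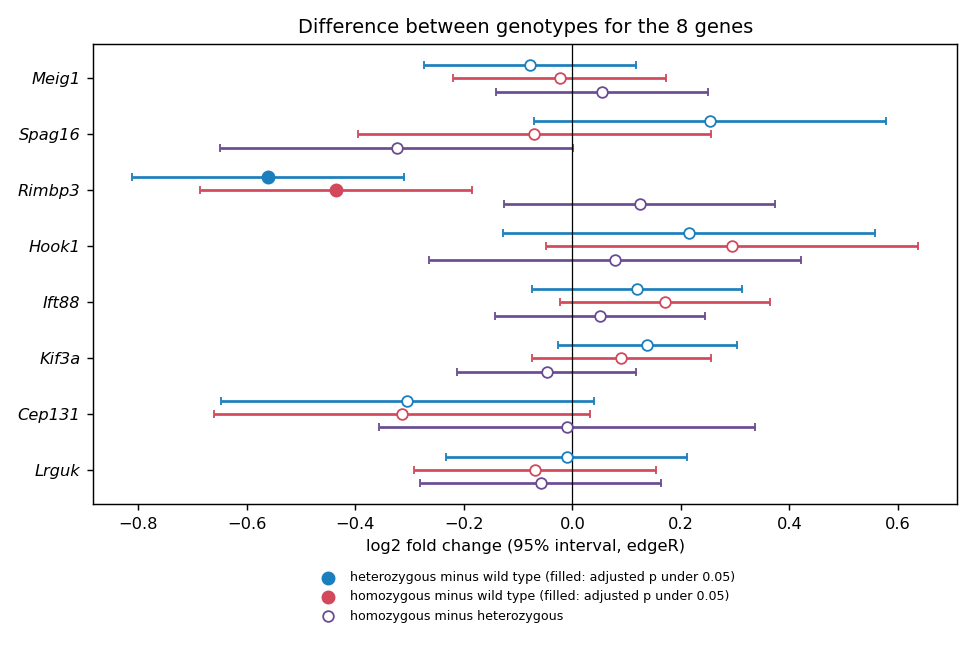
Log2 fold change (horizontal axis) of each of the 8 genes with its 95% interval from edgeR, for 3 comparisons of genotypes. Filled points passed at an adjusted p under 0.05. Rimbp3 is the 1 gene with filled points, at -0.56 and -0.44 against wild type.

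The 8 genes covered a wide range of levels, from the 60.3 percentile of tested features by mean CPM (Cep131) and 76.1 (Kif3a) to 99.9 (Meig1). Levels were compared between genes per length. Per kilobase of exon in the annotation of the files, wild type held 1051 ± 25.3 CPM of Meig1, 78.9 ± 16.4 of Spag16, 68.9 ± 9.49 of Rimbp3 and 49.5 ± 4.67 of Hook1 (SD, n = 3 each). Then came Ift88 at 21.99 ± 1.84, Lrguk at 18.4 ± 1.65, Kif3a at 10.8 ± 0.074 and Cep131 at 5.21 ± 0.743. Spag16 and Rimbp3, neighbours in this order, did not differ beyond their spread. In heterozygotes Hook1 (57.5 ± 13.5) and Rimbp3 (46.8 ± 3.51) stood in the reverse order, within their spread, and in homozygotes Hook1 stood at 60.7 ± 7.45 and Rimbp3 at 51.0 ± 4.68.

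Intronic fragments enter these values for every gene but Rimbp3, so the order depends on the length used. Per kilobase of gene body Meig1 (85.1 ± 2.05 CPM in wild type), Rimbp3 (68.9 ± 9.49) and Hook1 (7.08 ± 0.667) led, and Spag16 was last at 0.594 ± 0.123. Lrguk has 3445 exonic bases in the annotation of the files and 12068 in a later GENCODE release, M21. With the latter its wild-type level per kilobase of exon was 5.24 ± 0.471 CPM, close to Cep131.

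**Figure D4:**
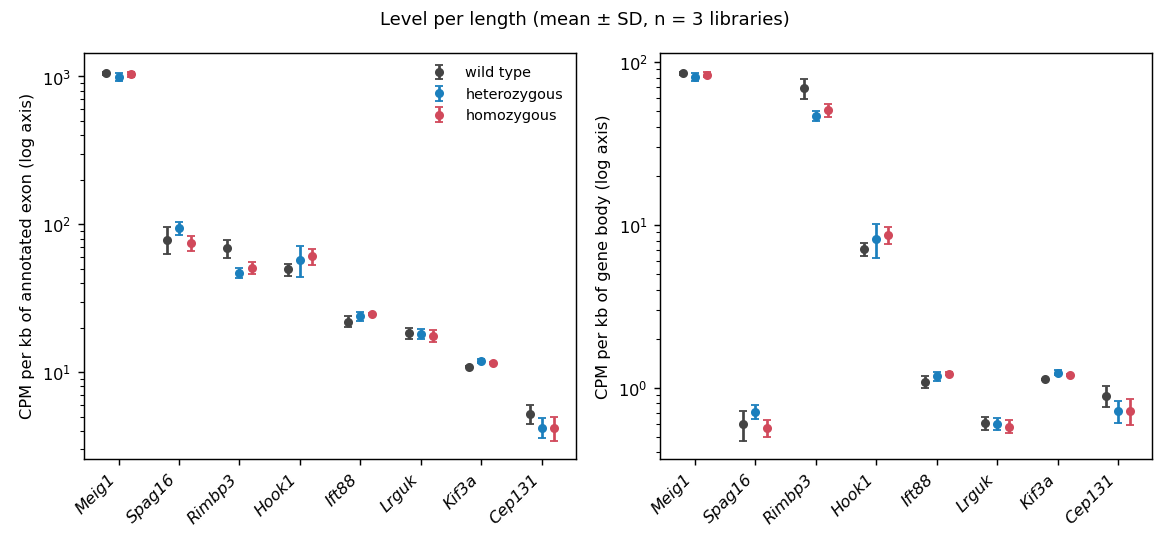
Level of the 8 genes in CPM per kilobase (log axes), per exon length on the left and per gene body length on the right, as mean ± SD of 3 libraries for each genotype. Meig1 leads on both scales, and Spag16 falls from the second to the last place in wild type when its long gene body is the divisor.

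Promoters were examined because RFX factors, which bind the X-box with the half-site GTTGCC, are known regulators of ciliary and spermatid genes. The RefSeq table of promoters (build GRCm38.p6, the same assembly as mm10), which holds 250 bases before to 50 after each start, had entries for 7 of the 8 genes, and Rimbp3 was not matched. GTTGCC was found on either strand in 4 of 7 (Spag16, Ift88, Kif3a and Lrguk), against 12.5% of 32851 promoters of all genes in the table. These 4 are shown, together with Meig1, the most abundant gene, which has no match at the start searched. Meig1 has 3 listed starts, of which only that nearest its gene start was searched, while the 12.5% counts every listed promoter. Capitals mark GTTGCC or its complement and, in Lrguk, the full cAMP response element TGACGTCA. The windows are chr1:69826720-69827019 on the plus strand for Spag16, chr14:57423821-57424120 on the plus strand for Ift88, chr11:53567119-53567418 on the plus strand for Kif3a, chr6:34029198-34029497 on the plus strand for Lrguk and chr2:3422599-3422898 on the minus strand for Meig1.
Spag16: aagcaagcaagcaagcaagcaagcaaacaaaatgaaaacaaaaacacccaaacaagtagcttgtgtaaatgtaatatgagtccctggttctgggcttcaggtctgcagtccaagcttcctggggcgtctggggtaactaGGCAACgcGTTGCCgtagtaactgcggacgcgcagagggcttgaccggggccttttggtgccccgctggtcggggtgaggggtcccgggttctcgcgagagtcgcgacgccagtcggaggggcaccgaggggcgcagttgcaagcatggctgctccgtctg
Ift88: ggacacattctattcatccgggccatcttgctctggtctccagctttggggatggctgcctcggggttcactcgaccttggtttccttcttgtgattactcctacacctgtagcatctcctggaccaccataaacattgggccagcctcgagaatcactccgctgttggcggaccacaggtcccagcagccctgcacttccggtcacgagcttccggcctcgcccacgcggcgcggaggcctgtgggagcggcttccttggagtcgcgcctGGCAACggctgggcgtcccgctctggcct
Kif3a: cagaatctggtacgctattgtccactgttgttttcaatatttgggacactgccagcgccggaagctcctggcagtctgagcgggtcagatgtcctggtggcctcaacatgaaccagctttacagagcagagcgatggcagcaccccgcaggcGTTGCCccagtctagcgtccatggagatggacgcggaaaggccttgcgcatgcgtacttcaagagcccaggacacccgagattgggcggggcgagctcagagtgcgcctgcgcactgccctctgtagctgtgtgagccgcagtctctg
Lrguk: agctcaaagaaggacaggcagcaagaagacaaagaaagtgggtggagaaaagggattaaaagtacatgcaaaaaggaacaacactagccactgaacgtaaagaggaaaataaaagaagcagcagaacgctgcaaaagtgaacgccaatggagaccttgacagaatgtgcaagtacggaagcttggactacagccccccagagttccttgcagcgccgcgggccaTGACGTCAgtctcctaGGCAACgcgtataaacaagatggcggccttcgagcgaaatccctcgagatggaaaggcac
Meig1: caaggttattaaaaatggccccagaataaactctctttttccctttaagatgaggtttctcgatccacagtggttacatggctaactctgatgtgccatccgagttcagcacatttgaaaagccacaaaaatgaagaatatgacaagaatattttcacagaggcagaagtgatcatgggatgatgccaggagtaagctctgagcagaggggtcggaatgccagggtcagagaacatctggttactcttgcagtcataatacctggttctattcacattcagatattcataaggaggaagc

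In Spag16 the 2 half-sites began 111 and 103 bases before the start, on opposite strands and with 2 bases between them. GGCAAC came first and GTTGCC second, and whether this order can serve as an X-box was not tested. TGACGTCA, the site of CREM and related factors, occurred in Lrguk and in 1.79% of all promoters. Its shorter form TGACG was found in Lrguk and Cep131 (2 of 7, against 20.8% of all), and TGACG overlaps the full element in Lrguk. The MYB core CAGTTG was found in Spag16 alone among the 7 (13.7% of all), and CCAAT in Hook1, Ift88, Kif3a, Cep131 and Lrguk (37.4% of all). A match is a stretch of letters, not a site shown to be bound. None of the 7 genes searched, with or without GTTGCC, passed a comparison between genotypes in edgeR. Rimbp3, the gene that did, was not searched, so motifs and calls cannot be compared.

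Partner genes of the manchette, in lists drawn up with earlier results of these data known, held calls in both directions. Of 30 listed genes for manchette assembly, microtubule severing and nuclear linkage, 28 could be tested, and 6 were lower and 1 higher in heterozygotes than in wild type (median log2 fold change -0.11). In homozygotes 5 were lower and 1 higher (median -0.13). Over all features 12.9% were lower and 11.1% higher in heterozygotes, and 11.1% lower and 9.68% higher in homozygotes, so that 7 and 6 of 28 lay near the shares called in all (23.9% and 20.8%). Septin12, a septin of the sperm annulus, fell from 219 ± 2.45 CPM in wild type to 152 ± 7.28 in heterozygotes (log2 fold change -0.52, edgeR adjusted p = 0.00486) and to 158 ± 19.3 in homozygotes (-0.47, edgeR adjusted p = 0.0079), the comparisons sharing the wild-type libraries. It passed in both under all 17 alternatives. The count in this list ranged over the alternatives from 4 to 10 lower and 0 to 2 higher in heterozygotes, and from 2 to 6 lower and 0 to 2 higher in homozygotes.

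The relatives of Hook1 moved in opposite directions. Hook2, which encodes a linker known to bind LRGUK, fell from 81.5 ± 6.76 to 53.7 ± 9.00 CPM in heterozygotes (log2 fold change -0.60, edgeR adjusted p = 0.0116) and to 54.0 ± 8.96 in homozygotes (-0.59, edgeR adjusted p = 0.0133). Hook3 rose from 44.4 ± 2.41 to 58.7 ± 2.35 in heterozygotes (0.40, edgeR adjusted p = 0.0111) and to 59.5 ± 5.72 in homozygotes (0.42, edgeR adjusted p = 0.00984). The Hook2 call in homozygotes was lost without homozygous library 2 (edgeR adjusted p = 0.0626) or 3 (0.0645). The Hook3 calls were lost in homozygotes without homozygous library 2 (0.0512) and in heterozygotes with length trends removed (0.0579).

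Genes of intraflagellar transport and kinesin-II are partners of Ift88 and Kif3a. Of 28 tested, 3 were lower and 1 higher in heterozygotes (median 0.00781) and 2 lower and 2 higher in homozygotes (median 0.03), beside 23.9% and 20.8% of all features called in either direction. Ift74, a core subunit of the B complex that binds tubulin with IFT81, rose from 182 ± 18.2 CPM to 283 ± 28.6 in heterozygotes (log2 fold change 0.64, edgeR adjusted p = 0.0036) and 296 ± 25.5 in homozygotes (0.70, edgeR adjusted p = 0.00203). Ift27, a small GTPase of the same complex, fell from 21.3 ± 4.91 to 10.6 ± 1.47 and 10.5 ± 1.25 CPM (log2 fold changes -1.003 and -1.017, edgeR adjusted p = 0.00321 and 0.00287). Ift74 and Ift27 passed in all 17 alternatives of both comparisons. Kif17, a kinesin of spermatids, fell by 0.65 and 0.58 on the log2 scale (edgeR adjusted p = 0.00974 and 0.0164). Ift140, a core subunit of the A complex, was lower in heterozygotes (-0.47, edgeR adjusted p = 0.028) and Ift81 higher in homozygotes (0.30, edgeR adjusted p = 0.0402), calls lost in 3 and 8 of 17 alternatives, and neither passed between homozygotes and heterozygotes. Without homozygous library 2 or 3, Kif17 missed the threshold in homozygotes (edgeR adjusted p = 0.061 and 0.060).

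Partners of SPAG16 in the central apparatus and radial spokes fell in 4 of 14 genes in each comparison with wild type, and none rose (all features: 12.9% lower in heterozygotes and 11.1% in homozygotes). In heterozygotes and homozygotes, the log2 fold changes were -0.78 and -0.76 for Spag8, -0.52 and -0.55 for Rsph9, -0.58 and -0.49 for the radial spoke gene Rsph1, and -0.34 and -0.39 for Spag6. Their edgeR adjusted p ranged from 0.00684 (Spag8) to 0.0391 (Rsph1). Spag6 has a near-identical relative, Spag6l, so its reads may be divided between copies, and its call was lost in 9 of 17 alternatives in heterozygotes and 3 in homozygotes. Rsph1 lost its call in 2 and 7 of the 17, and in heterozygotes without wild-type library 1 (edgeR adjusted p = 0.0693) or heterozygous library 3 (0.0615). Spag8 and Rsph9 passed in all of them.

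Genes of the perinuclear theca, the cytoskeletal capsule around the sperm nucleus, had the lowest median of the 4 partner lists. Of 14 tested, 6 were lower in heterozygotes (median log2 fold change -0.39) and 4 in homozygotes (-0.22), and none rose (all features: 12.9% and 11.1% lower). The actin-related genes Actl7a, Actl7b, Actl9 and Actrt2 fell by 0.48, 0.61, 0.62 and 0.63 on the log2 scale in heterozygotes (edgeR adjusted p from 0.0115 to 0.0181). Their calls in heterozygotes were lost in 1 to 3 of 17 alternatives each, and the number called there ranged from 1 to 8 lower. In homozygotes they fell by 0.39, 0.50, 0.54 and 0.55 (edgeR adjusted p from 0.0307 to 0.0353). Each of these homozygous calls was lost in 6 or 7 of 17 alternatives, among them those without any 1 of wild-type libraries 2 and 3 and homozygous libraries 2 and 3, and the number called in homozygotes ranged from 0 to 5 lower and 0 to 1 higher. Between homozygotes and heterozygotes 0 genes of the 4 lists passed in edgeR and in each alternative, DESeq2 included.

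**Figure D5:**
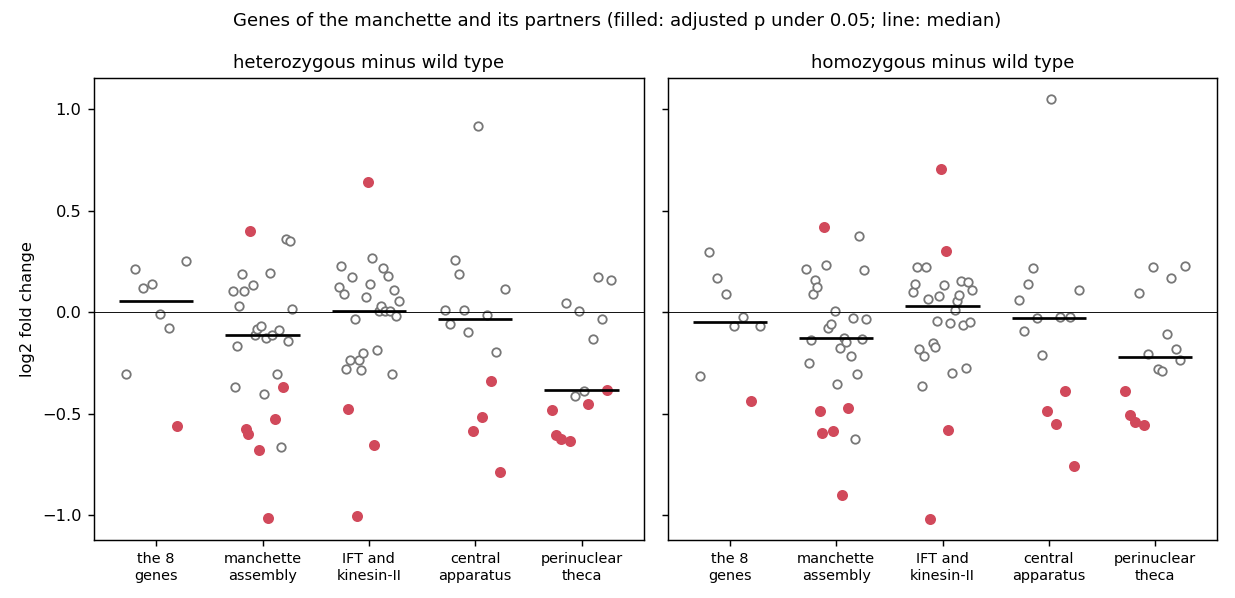
Log2 fold change against wild type (vertical axis) for the 8 genes and the tested genes of 4 partner lists, in heterozygotes (left) and homozygotes (right). Filled points passed at an adjusted p under 0.05, and lines are medians, of which that of the perinuclear theca list is the lowest shown, at -0.39 and -0.22.

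Other cell types were followed with marker lists, whose part in the results above was not tested. Beside the counts below, 12.9% of all features were lower and 11.1% higher in heterozygotes. In homozygotes these shares were 11.1% and 9.68%. Early meiotic markers summed to 2515 to 2585 CPM in wild type, 2942 to 3576 in heterozygotes and 3234 to 3522 in homozygotes, so both other genotypes lay above wild type. Leydig cell markers summed to 1297 to 1430.3, 575 to 757 and 541 to 704 CPM, lower in both (Insl3, 1 of its 10 markers, was listed at 0). Round spermatid markers overlapped between the groups, at 1749 to 1983, 1731 to 1876 and 1772 to 1934 CPM. Sums for markers of pachytene and secondary spermatocytes were below wild type in both, at 4419 to 4573, 4011 to 4149 and 4062 to 4303 CPM, with Pou5f2 listed at 0. Of the 11 tested, 3 were lower and 0 higher in heterozygotes by edgeR, and 1 was lower and 1 higher in homozygotes. Hspa2, which did not pass, stood at 959, 738 and 773 CPM. Peritubular myoid sums were also below wild type, at 356 to 374, 279 to 328 and 273 to 301 CPM. Most of that drop lay in Actg2, which stood at 171 CPM in wild type and 113 in each other genotype. Of the 6 myoid markers, 1 was lower in heterozygotes and 2 in homozygotes by edgeR, and 0 were higher (median log2 fold change -0.04 and -0.15). The summed level of Sertoli cell markers was lower in heterozygotes (844 to 909 against 941 to 986 CPM) and overlapped wild type in homozygotes (876 to 1002). Clu, which did not pass, held most of that sum, at 675 CPM in wild type and 567 in heterozygotes. Of the 10 Sertoli markers, 2 were higher and 0 lower in heterozygotes by edgeR (median log2 fold change 0.01). The 6 genes listed as markers of motile ciliated epithelium, a tissue that shares several of the 8 genes, were also summed. Their sums were 376 to 392, 305 to 347 and 312 to 345 CPM, with both other genotypes below wild type. Which testis cells hold these transcripts was not tested, so the sums do not measure that tissue. Of these 6 markers, Foxj1 fell from 84.9 ± 19.7 CPM to 42.2 ± 9.77 and 41.1 ± 11.2 (log2 fold changes -1.01 and -1.05, edgeR adjusted p = 0.00866 and 0.00796), and Tppp3 fell as well (-0.66 and -0.74, edgeR adjusted p = 0.0287 and 0.0211). Deup1 stood at 217, 221 and 223 CPM, Dynlrb2 did not pass in either, and Cdhr3 and Mcidas lay under 1 CPM. Spermatogonial sums were 156 to 188 CPM in wild type, 147 to 155.3 in heterozygotes, just below both other groups, and 155.7 to 168 in homozygotes, and leukocyte sums overlapped between all groups.

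For each of the 8 genes, the 3 genes with the most similar pattern were found by Pearson's r of log2 CPM over the 9 libraries, among 12644 features with at least 5 CPM. These r values describe libraries that share genotype, depth and cell makeup. Rimbp3 was most like Wdr62, Tbrg1 and Dlec1 (r = 0.99 each). Spag16 was most like Agbl4 and Mgat4c (r = 0.995 and 0.99), whose gene bodies span 1266664 and 709983 bases. It was also like 1700012D14Rik (0.99), whose gene body spans only 39621 bases. Hook1 was most like 1700095J03Rik, Hspa4l and Dnajc5g (0.99, 0.98 and 0.96), and Ift88 like Syne2, Cntrl and Baz1a (0.97, 0.97 and 0.96). Kif3a was most like Stxbp5, Stab2 and Cadps2 (0.97, 0.95 and 0.94), and Cep131 like 1700018L02Rik, Dolk and Ciz1 (0.98 each). The lowest values were those of Meig1, with Txndc15, Pkd2 and Fam24a (0.88, 0.84 and 0.82), and of Lrguk, with Gm4985, Gm37305 and Klhl32 (0.92, 0.89 and 0.88).

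Small RNA reads in sense over the exons of the 8 genes were few. Over all 6 small RNA libraries, which held 939641 to 1861402 counts, Hook1 had 130 reads, Meig1 71, Kif3a 38, Ift88 37, Spag16 26, Rimbp3 21, Lrguk 11 and Cep131 7. Hook1, the only 1 of the 8 that passed the filter on low counts, had 32, 12 and 16 reads in heterozygotes and 29, 21 and 20 in homozygotes. Its level was 14.8 ± 3.69 CPM in heterozygotes and 18.9 ± 1.04 in homozygotes (SD, n = 3), with a log2 fold change of 0.33 (SE 0.26, 95% interval -0.26 to 0.91, edgeR adjusted p = 0.721). In that comparison 0.0279% of 3581 features passed. Meig1 had 33 reads in heterozygous small RNA library 1, the deepest of the 6, and 4 to 12 in the others. The other 7 genes did not pass the filter on low counts, and in the fit without that filter 0 of the 8 passed the test.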

How the data were processed

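The authors deposited raw counts per feature, not normalized. Per the file headers, RNA-seq fragments in proper pairs were counted by featureCounts per gene from first to last base, so intronic fragments are in, once per strand, on GENCODE M12 genes plus 466 piRNA precursors. The reverse-strand counts were used here. Fragments in overlapping features of 1 strand were not counted. Small RNA counts cover exons, per the file headers. The submitters' processing notes name HISAT2 2.1.0 and the mm10 and mm9 builds, without roles.

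Symbols were found for 49326 of 49585 gene IDs. filterByExpr kept 20782 RNA-seq features and 3581 small RNA features, libraries were scaled by TMM, and all 9 RNA-seq libraries entered 1 edgeR 4.0.16 quasi-likelihood fit (R 4.3.3). The threshold was 0.05 for p adjusted by Benjamini-Hochberg over all features. SE is the log2 fold change over the square root of F. RNA-seq library numbers run through all groups in the labels and pair nothing. In simulated counts of 20782 features for homozygotes against wild type, 100 features were changed by 1 log2 unit and 100 by 0.5. Of these changes, 71% and 20% were recovered. Far more features passed in the data, which alters the adjusted p, so these shares may not hold there. The 8 genes and all lists were chosen with earlier results of these data known. From each partner list up to 4 passing genes with the lowest p were named, except that 1 result is not reported here. Alternatives were DESeq2 1.42.0, 2 scalings, 2 filters, both strands summed, only the groups compared, each library left out, a replicate block for small RNA and, added after the data were seen, removal of gene length trends.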

Additional observations from a re-analysis of the deposited data

How the results depend on the processing

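Rimbp3 kept its call in heterozygotes under all 17 alternatives (log2 fold change -0.64 to -0.42) and in homozygotes under 13. The 8 genes called numbered 1 to 2 in heterozygotes and 0 to 1 in homozygotes with 1 library left out, and 0 in homozygotes with length trends removed. Features called ranged, with 1 library left out, from 2432 (without heterozygous library 3; 2901 without wild-type library 1) to 4720 in heterozygotes. In homozygotes they ranged from 1805 (without homozygous library 3; 1899 without 2, and 2760 and 2814 without wild-type libraries 2 and 3) to 4737. Between homozygotes and heterozygotes the range was 4 to 18 (18 without heterozygous library 3), and DESeq2 called 17 and the fit without a filter 13. In small RNA 43 features passed without a filter, 0 to 617 with 1 library left out (617 without heterozygous library 1, 0 without homozygous library 2 or 3), and 0 with a replicate block, against 1. The labels do not say whether a number pairs small RNA libraries. Deviations from the group means correlated at -0.15, 0.00195 and -0.08 for libraries 1 to 3. With 3 libraries a group such values cannot exclude a pairing, and the block changed no call among the 8 genes. The cause was not tested.

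Without scaling, the median of all features moved by 0.10 log2 units in heterozygotes against wild type. Directions turned for 23 values, none called in either fit. Without scaling Meig1 came to 0.018 in heterozygotes and 0.022 in homozygotes against wild type, and Lrguk to 0.093 in heterozygotes. With length trends removed, Meig1 came to 0.00664 and 0.056, Spag16 to -0.068 and Ift88 to -0.00317 in heterozygotes, and Lrguk to 0.012 between homozygotes and heterozygotes. With the groups compared alone Lrguk came to 9.72e-04 in heterozygotes. With 1 library left out, Lrguk ranged from -0.080 to 0.069 in heterozygotes, from -0.14 to 0.00801 in homozygotes and from -0.13 to 0.011 between them. Spag16 ranged from -0.23 to 0.021 in homozygotes against wild type. Between homozygotes and heterozygotes Hook1 ranged from -0.089 to 0.25 and Cep131 from -0.15 to 0.10. The 8 genes had 345 fragments or more in each RNA-seq library, and the part of depth was not tested.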

Other observations

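RIMBP3 and HOOK1 bind each other, so the ratio of their transcripts within a library was also taken, a quantity that does not depend on scaling between libraries and that was chosen after the values were seen. The ratio of Rimbp3 to Hook1 CPM was 1.25, 0.854 and 0.845 in the wild-type libraries, 0.686, 0.578 and 0.482 in the heterozygous libraries and 0.725, 0.583 and 0.474 in the homozygous libraries. The means were 0.982 ± 0.229, 0.582 ± 0.102 and 0.594 ± 0.126 (SD, n = 3 each). All 6 ratios outside wild type lay below all 3 wild-type ratios, and library 1 had the highest ratio in each genotype. Rimbp3 by itself already separated in this way, so the ratio adds no independent result. How often other pairs of genes separate was not tested.

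RNA of the opposite strand was scarce at all 8 genes. Its share of the kit-strand count was 0.131 to 0.255% for Meig1 and 0.139 to 0.530% for Lrguk over the 9 libraries, while over all features it was 8.81 to 10.7%. Cep131 had the widest share, 1.3 to 5.64%, from 6 to 26 fragments. Ube2b, a ubiquitin-conjugating enzyme gene, and Iqcg were listed at 0 in all 9 libraries. Each lies wholly within a feature of the same strand (Gm26551 and Gm17106), where fragments were not counted, so neither value bears on expression.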
